A study of Mus musculus with 15 samples.

Results

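The heat shock and immediate early genes were followed through RNA sequencing of the epithelium of the mouse uterus. A list of 38 genes was matched by gene symbol, with 15 heat shock genes and 23 immediate early genes, among 28269 genes listed in any table. Of these 38 genes, 37 were listed in at least 1 table and Egr2 was not analysed here. The 5 groups of 3 libraries each were luminal epithelium (LE, the lining of the uterine cavity) and glandular epithelium (GE, the uterine glands) of wild-type mice, LE and GE of E-OEX mice, and LE of U-OEx mice, all labelled day 4. Both E-OEX and U-OEx carry the genotype label of Notch1 overexpression, Notch1 being a cell surface receptor whose cleaved inner part activates transcription. The labels do not expand these names and do not give the promoter or Cre line that drives the overexpression, the strain, the age of the animals, or whether animals were pooled. Nothing in them says that the libraries of a group came from separate animals, so the tests measure only the spread between these libraries. Values are scaled read counts, that is, the deposited read counts divided by 1 factor per library. The libraries of different genotypes may have been scaled separately, so deposited values of different genotypes may not share a scale.

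Heat shock genes encode chaperones that bind unfolded proteins, and heat shock factor 1 switches many of them on within minutes of heat or other protein damage. Immediate early genes are transcribed shortly after a cell is stimulated, without new protein synthesis, and many encode transcription factors such as Fos, Jun and Egr1 or proteins that switch the signal off again, such as Dusp1 and Zfp36.

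Sequences upstream of the transcription start were read from RefSeq (GRCm38.p6), which held an entry for 31 of the 38 genes, 12 heat shock genes and 19 immediate early genes. Heat shock factor binds inverted repeats of GAA, and 250 bases upstream of each start were searched on both strands. A motif of 3 such units, GAANNTTC followed directly by NNGAA, was found at Hspd1 and Hspe1, 2 of 12 heat shock genes (16.7%), at 0 of 19 immediate early genes and at 0.514% of all 27025 genes with an entry. A shorter inverted pair, GAANNTTC or TTCNNGAA, was searched only after that result was known, and every match of the longer motif is also a match of this one. It was found at 8 of 12 heat shock genes (66.7%), at 3 of 19 immediate early genes (15.8%) and at 14.5% of all genes. These matches are descriptions of letters and do not show that a factor binds there. The upstream sequences of Hspa1a and Hspb1 are shown because both encode inducible chaperones, and that of Hspa1b because it differs from that of Hspa1a at 3 of 250 bases (98.8% identity). Jun is shown as an immediate early gene that holds the same inverted pair. Capitals mark the inverted pairs, and in Hspb1 also GTGGGAA, the motif bound by RBPJ, the DNA-binding partner of Notch.
Hspa1a, chr17:34972157-34972406, minus strand: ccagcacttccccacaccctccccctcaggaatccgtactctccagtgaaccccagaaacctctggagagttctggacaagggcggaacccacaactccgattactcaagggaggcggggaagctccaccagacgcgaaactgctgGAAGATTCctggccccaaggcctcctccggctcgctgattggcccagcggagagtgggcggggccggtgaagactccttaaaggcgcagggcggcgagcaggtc
Hspa1b, chr17:34959239-34959488, minus strand: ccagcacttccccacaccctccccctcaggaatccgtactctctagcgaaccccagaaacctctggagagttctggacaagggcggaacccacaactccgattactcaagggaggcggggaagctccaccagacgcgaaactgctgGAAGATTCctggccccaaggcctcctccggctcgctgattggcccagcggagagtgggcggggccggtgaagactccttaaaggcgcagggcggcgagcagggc
Hspb1, chr5:135887669-135887918, plus strand: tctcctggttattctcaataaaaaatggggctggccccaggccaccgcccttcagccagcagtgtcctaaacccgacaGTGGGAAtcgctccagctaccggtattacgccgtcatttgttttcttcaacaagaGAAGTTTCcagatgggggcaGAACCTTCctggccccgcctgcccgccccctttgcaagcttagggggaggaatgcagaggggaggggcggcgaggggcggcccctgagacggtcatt
Jun, chr4:95052223-95052472, minus strand: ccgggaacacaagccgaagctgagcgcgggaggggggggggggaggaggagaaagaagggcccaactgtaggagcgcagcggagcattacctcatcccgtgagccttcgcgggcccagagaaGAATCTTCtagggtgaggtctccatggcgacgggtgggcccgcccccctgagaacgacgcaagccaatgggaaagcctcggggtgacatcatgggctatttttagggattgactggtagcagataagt

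Hspd1 and Hspe1 encode the mitochondrial chaperonin and its cofactor and lie head to head on chromosome 1. Their annotated ends overlap, and the counting of reads by strand is not given in the sources used here. The run of inverted pairs between them is the same 18 bases read from either strand, at chr1:55088059-55088076, so both genes are counted above through a single site.
Hspe1, plus strand: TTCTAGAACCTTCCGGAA
Hspd1, minus strand: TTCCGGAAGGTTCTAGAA
The other inverted pairs were TTCTCGAA at Hsph1, GAAAATTC at Dnaja1, TTCTAGAA at Dnajb4, GAAGTTTC at Fosl2 and TTCCGGAA at Egr2. The cyclic AMP response element TGACGTCA was found at Btg2 and Dusp1 (10.5% of 19 immediate early genes, 1.77% of all genes). The CArG box, bound by serum response factor, was found at Zfp36 as CCATAAAAGG and at Egr2 (10.5%, against 1.62% of all genes). The AP-1 motif TGANTCA was found at Bag3 and Hspa5 (16.7% of 12 heat shock genes, 7.82% of all genes). GTGGGAA was found at Hspb1 alone of the 31 genes, against 6.18% of all genes.

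The tables differ in what they list, which limits each comparison. The wild-type tables list 6414 genes, and the means of GE and LE differ by at least 1 on the log2 scale for all 6414. In E-OEX this holds for 4902 of the 4903 genes listed, so the genes of both sets had been selected for a GE to LE difference. The U-OEx tables list 27946 genes without such a choice. A gene that is not in a table was not analysed in that genotype. The listed heat shock and immediate early genes numbered 18 in wild type (9 and 9), 36 in E-OEX (14 and 22) and 37 in U-OEx (15 and 22). The reads summed over each table were 3818041 to 4797424 for a wild-type library, 1980800 to 3494859 for an E-OEX library and 13541644 to 14981505 for a U-OEx library. Notch1 itself was analysed only in U-OEx LE (2913, 3524 and 2789), so the genotype labels were not checked on it. Luminal markers such as Lpar3 and Wnt7a summed to between 34035 and 61035 in wild-type LE and between 1206 and 1810 in wild-type GE, and glandular markers such as Foxa2 and Cxcl15 to between 45.6 and 92.2 and between 28575 and 51852. In E-OEX the luminal sums were 13135 to 17640 in LE and 1010 to 1876 in GE, and the glandular sums 108 to 1008 and 4370 to 5369, over 4 of 5 luminal and 4 of 6 glandular markers, where the wild-type sums hold all 5 and all 6, so these sums are not comparable between genotypes. General epithelial markers were lower in GE (16935 to 18203) than in LE (57529 to 64975) of wild type, and those of stroma, smooth muscle and endothelium were higher. Of 4 immune markers listed in wild type, 3 were higher in GE and Cd68 was lower (mean 61.0 against 239 in LE). Cd68 was the only immune marker listed in E-OEX, with 91.3 in GE against 224 in LE. The 8 listed stromal markers of a list of 10 summed to between 34625 and 100504 in wild-type GE, against 369 to 7743 in wild-type LE. All 10 summed to between 80344 and 96025 in E-OEX GE, between 507 and 2734 in E-OEX LE and between 686 and 2679 in U-OEx LE. Smooth muscle markers summed to between 2734 and 4878 in wild-type GE (5 of 6 listed), between 14173 and 17508 in E-OEX GE (6 of 6) and at most 230 in any LE library. Endothelial and pericyte markers summed to between 4046 and 6382 in wild-type GE, between 3740 and 12540 in E-OEX GE and at most 276 in any LE library. Actg2 in wild-type LE and Rgs5, Emcn and Spink1 in E-OEX LE were at 0 in all 3 libraries. In bulk RNA, fewer cells of a type and less RNA per cell cannot be told apart.

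The inducible HSP70 genes had the widest GE to LE differences of the listed heat shock genes in both genotypes, in tables selected for such differences. Hspa1a (chromosome 17, 34969190 to 34972156, GRCm38) and Hspa1b (chromosome 17, 34956436 to 34959238) encode the stress-inducible HSP70. Hspa1a had 445, 4409 and 3675 scaled reads in wild-type LE replicates 1 to 3 and 57815, 68041 and 50978 in wild-type GE. In E-OEX it had 3236, 2694 and 1480 in LE and 147251, 232993 and 134782 in GE. Every GE library was above every LE library on the deposited scale, U-OEx LE included (1944, 1482 and 13320). Hspa1b had 2985, 11772 and 12195 in wild-type LE, and 104090, 110515 and 94999 in wild-type GE. In E-OEX LE it had 10930.5, 8091 and 5862, and in E-OEX GE 252686, 370020 and 261126. The 2 genes are near-identical copies, and how the counting divided reads between them is not given in the sources used here. The ratio of Hspa1b to Hspa1a reads was 2.45 to 6.70 in the LE libraries and 1.59 to 1.94 in the GE libraries. Together they took 3.82% to 4.61% of the reads listed for wild-type GE. For E-OEX GE the share was 12.1% to 16.1%, over another list of genes.

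**Figure D1:**
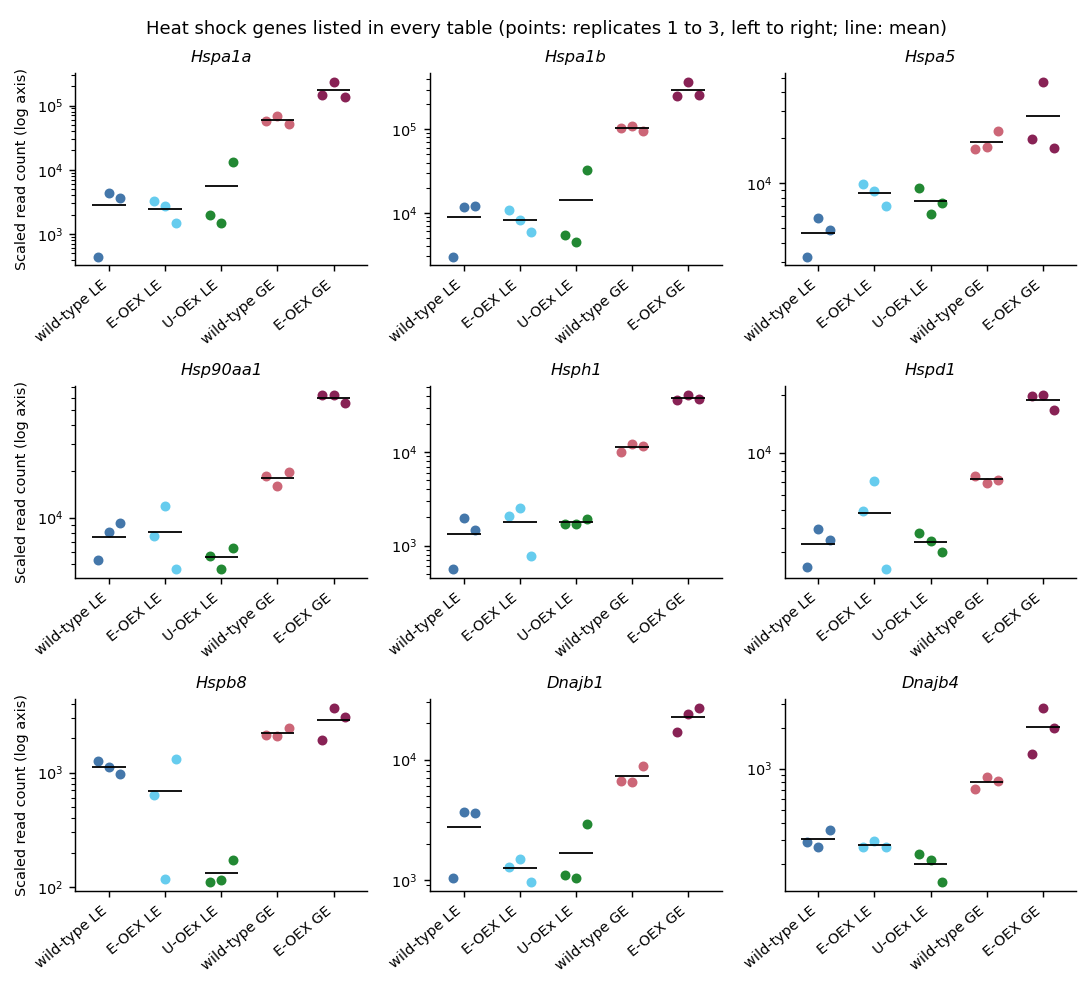
Scaled read counts (log axis) of the 9 heat shock genes listed in every table, in 5 groups of 3 libraries. Points are replicates 1 to 3 from left to right and lines are means. Hspa1a lay between 445 and 13320 in LE libraries and between 50978 and 232993 in GE libraries.

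On the log2(value + 1) scale, all 9 listed heat shock genes were higher in wild-type GE than in wild-type LE at an adjusted p-value under 0.05 in limma (adjusted over all genes tested), where 97.0% of all listed genes passed. In E-OEX all 14 passed, where 91.6% of listed genes did. These shares describe tables selected for this difference, so the counts say nothing about the heat shock genes as a group. Their direction was also the more common one: 56.6% of listed genes were called higher in wild-type GE and 40.5% lower, and in E-OEX the shares were 61.5% and 30.1%. With TMM scaling of the E-OEX libraries the median over all genes was 1.07 in place of 1.75, 56.8% of calls were higher in place of 67.2%, and 34 of the 36 heat shock and immediate early genes passed. In edgeR's quasi-likelihood test 31 of the 36 passed, without Bag3 (adjusted p = 0.0633), Hspa5 (0.0794), Ier5 (0.0717), Hspb8 (0.104) and Fosl2 (0.384). The median difference of the heat shock genes was 1.61 in wild type and 2.66 in E-OEX, beside 1.36 and 1.75 over all listed genes. The call of Dnajb1 in wild type was lost without GE replicate 3 (adjusted p = 0.0578). The widest differences were those of Hspa1a (4.92 in wild type, 6.15 in E-OEX), Hspa1b (3.77 and 5.17) and Hsph1 (3.26 and 4.57), the last a nucleotide exchange partner of HSP70. Hspa5, the chaperone of the endoplasmic reticulum, differed by 2.04 and 1.56, and the latter was no longer called with TMM scaling (0.82, adjusted p = 0.092).

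Of the heat shock genes listed only in E-OEX and U-OEx, Hspb1, a small heat shock protein that holds unfolded proteins, had 3226, 3952 and 4972 scaled reads in E-OEX LE and 23145, 33146 and 23344 in E-OEX GE (log2 difference 2.71). Its U-OEx LE libraries were at 1810, 2601 and 4222. Hspa8, the constitutive HSP70, differed less (1.79), from 24167, 25400.3 and 17043 in E-OEX LE to 64217, 95029 and 71317 in E-OEX GE. Hspe1 differed by 2.16, Bag3, a partner of HSP70 in the clearance of damaged proteins, by 1.94 and the HSP40 Dnaja1 by 1.77. For each of these 5 genes, the GE libraries lay above all the LE libraries. The stromal, smooth muscle and endothelial marker sums were higher in GE in the same libraries, and their part in these differences was not tested.

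Of the immediate early genes, 7 of 9 were called higher in wild-type GE, beside 56.6% of the genes listed, and 22 of 22 in E-OEX GE, beside 61.5%, again in tables selected for this difference. Jun, a subunit of the AP-1 transcription factor, had 3714, 7824 and 7808 in wild-type LE and 16337, 17812 and 21200 in wild-type GE. In E-OEX it had 6002, 5903 and 4247 in LE and 74825, 69593 and 89648 in GE. The GE libraries did not overlap with the LE libraries. Fos, the partner of Jun, was listed only in E-OEX and U-OEx, with 1981, 919 and 1183 in E-OEX LE and 20157, 33791 and 31963 in E-OEX GE. Egr1, a zinc finger transcription factor, differed by 1.84 in wild type and 5.42 in E-OEX, and the wild-type call was lost without LE replicate 3 or any 1 GE library (adjusted p = 0.0524 to 0.107) and in edgeR's quasi-likelihood test (0.0709). The median was 1.84 in wild type and 2.94 in E-OEX. The 2 genes that did not pass in wild type were the orphan nuclear receptors Nr4a1 (1.37, limma adjusted p = 0.0548) and Nr4a3 (-1.54, limma adjusted p = 0.293). Nr4a1 was called without LE replicate 2 (1.89, limma adjusted p = 0.0138). The calls of Atf3 and Gadd45a in wild type were lost without GE replicate 3 (0.0931 and 0.0595), that of Atf3 also without GE replicate 1 or 2 (0.0593 and 0.0735) and in edgeR's test (0.0598). Nr4a3 had 57.0, 1904 and 3203 in wild-type LE and 250.1, 250.2 and 225 in wild-type GE, so that replicate 1 of LE lay below the GE libraries and the other two above them. Without that library, 17 of 18 heat shock and immediate early genes passed, 16 higher in GE and Nr4a3 lower (-3.35, limma adjusted p = 7.21e-05), and edgeR's quasi-likelihood test called it lower with all libraries (-3.07, adjusted p = 0.0224).

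The immediate early genes listed only in E-OEX and U-OEx spread widely in E-OEX. Egr3, a relative of Egr1, had 13.7, 0 and 11.9 scaled reads in LE and 75.1, 208 and 352 in GE (log2 difference 4.95). Dusp1, the phosphatase that switches off MAP kinases, had 1229, 318 and 351 in LE and 5193, 8158 and 9835 in GE (3.85). Fosb, a relative of Fos, differed by 3.84, Gadd45g by 3.35, Nr4a2 by 2.77, Jund by 2.74, Ier2 by 2.57 and Fosl1 by 2.49. Btg2, an antiproliferative protein, differed by 2.43, Zfp36, which destabilises cytokine mRNAs, by 2.28 and Junb by 2.21. Fosl2 had the smallest difference (1.13), with 3887, 1873 and 2265 in LE and 3915, 7039 and 6243 in GE, and its call was lost with TMM scaling (0.39, adjusted p = 0.29) and without any 1 of LE replicates 2 and 3 and GE replicates 2 and 3 (0.052 to 0.0914). Of the genes listed in every table, Hspb8 lost its E-OEX call without GE replicate 2 or 3 (0.0655 and 0.0636) and Ier5 without GE replicate 1 (0.0554). The U-OEx LE libraries of Fosl2 (5030, 3671 and 5933) overlapped with E-OEX GE on the deposited scale, and these groups were not rescaled together.

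**Figure D2:**
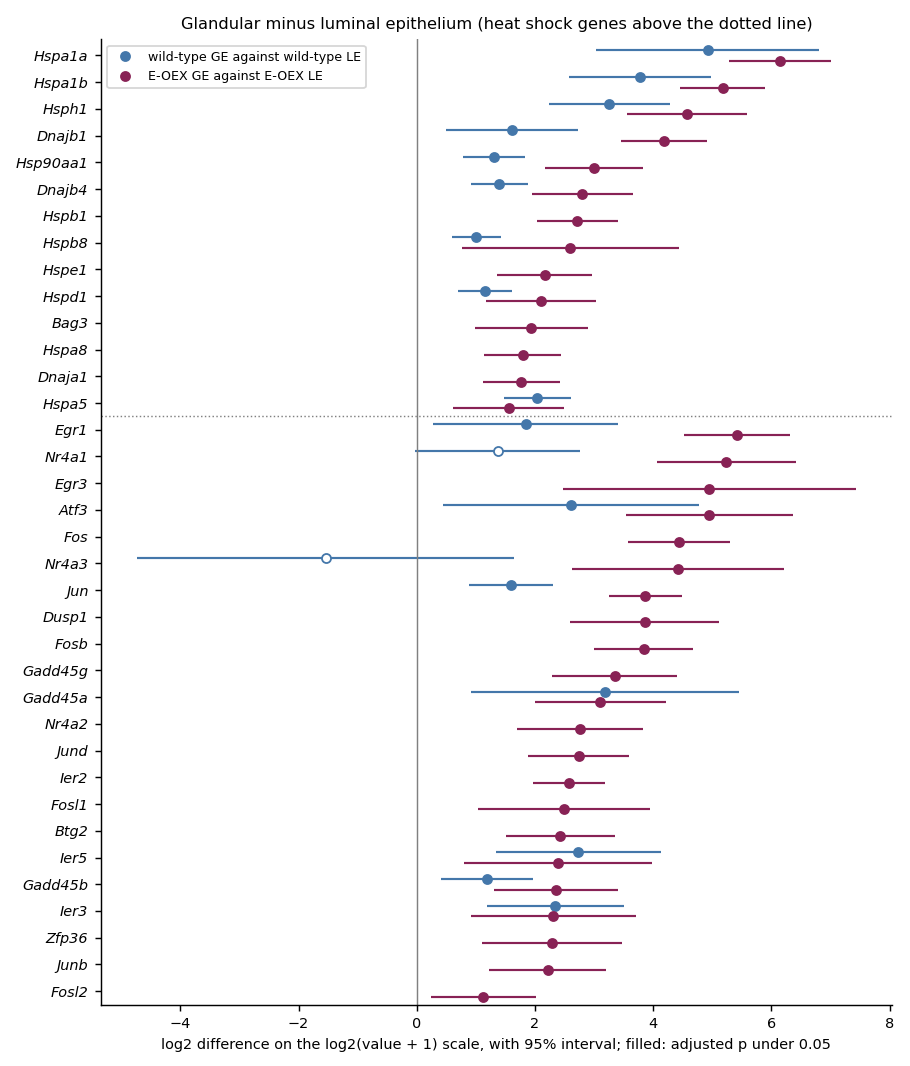
Difference between GE and LE for each listed gene in wild type (18 genes) and E-OEX (36 genes), on the log2(value + 1) scale with its 95% interval. Filled points have an adjusted p under 0.05. All E-OEX points lie right of 0, from 1.13 for Fosl2 to 6.15 for Hspa1a, and in wild type Nr4a3 lies left of 0 at -1.54.

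The next comparison asked how the genes differed between E-OEX GE and wild-type GE. Reads of the shared genes were rescaled together by TMM, and the values of this comparison are on that scale. Of the 18 genes, 13 passed in limma, 11 higher and 2 lower in E-OEX GE. Over all 2851 genes tested, 23.5% passed, with 9.72% higher and 13.8% lower. The heat shock genes had a median log2 fold change of 1.03 and the immediate early genes one of 1.29, beside 0.05 over all genes. Genes were in this comparison only if selected for a GE to LE difference in both genotypes. All 36 of the set listed in E-OEX were higher in GE than in LE there, while 30.1% of all genes listed were called lower. For these genes the selection was thus tied to high E-OEX GE values. Shares and medians over all genes are not a like background for them.

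Of 9 heat shock genes, 6 rose in E-OEX GE. Hsph1 went from 12518, 13899 and 14208 in wild-type GE to 34135, 36414 and 29222 in E-OEX GE, 2.45-fold higher (1.29 on the log2 scale, SE 0.22, limma adjusted p = 0.00264). Every E-OEX library was above every wild-type one. Hsp90aa1, the inducible HSP90, went from 23277, 18409 and 24187 to 59367, 55436 and 43101 (log2 fold change 1.26, SE 0.24, limma adjusted p = 0.00504). Dnajb1, the HSP40 that delivers clients to HSP70, went from 8314, 7443 and 10773 to 16141, 21233 and 21136 (1.15, SE 0.24, limma adjusted p = 0.00793). These 2 genes did not overlap between the genotypes either. Hspa1a went from 71847, 78335 and 62306 to 140563, 206741 and 105701 (1.04, SE 0.30, limma adjusted p = 0.0298), and Hspa1b rose by 1.03 (SE 0.27, limma adjusted p = 0.0217). The calls of Hspa1a and Hspa1b were lost without the filter on low values (adjusted p = 0.0797 and 0.0752), and without any 1 of the 3 wild-type GE libraries or E-OEX GE replicate 1 (0.0502 to 0.112). Hspd1 rose by 0.92 (SE 0.23, limma adjusted p = 0.0193), a call lost without wild-type GE replicate 2 (0.0713) or 3 (0.0648). Dnajb4, another HSP40, was at 0.81 (limma adjusted p = 0.0661, and 0.0141 without E-OEX GE replicate 1), Hspb8, a small heat shock protein, -0.13 and Hspa5 -0.05. Of the heat shock genes, 7 of 9 were higher in E-OEX without overlap, beside 18.6% of all genes, and of the immediate early genes 5 of 9 were higher and 2 of 9 lower without overlap, beside 18.6% and 21.9%.

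Of 9 immediate early genes, 5 rose and 2 fell in E-OEX GE. Gadd45b, a stress response protein that binds MAP kinase kinases, went from 556, 916 and 450.5 in wild-type GE to 2436, 2799 and 1727 in E-OEX GE, a 3.71-fold rise (log2 fold change 1.89, SE 0.31, limma adjusted p = 0.00233). Egr1 went from 6426, 12185 and 8271 to 27871, 23908 and 32463 (1.69, SE 0.28, limma adjusted p = 0.00239). Jun went from 20303, 20506 and 25911 to 71427, 61752 and 70305 (1.61, SE 0.23, limma adjusted p = 0.00105). The groups of these 3 genes did not overlap. Ier5 rose by 1.43 (SE 0.26, limma adjusted p = 0.0037) and Atf3, a stress-induced repressor, by 1.29 (SE 0.33, limma adjusted p = 0.021). Gadd45a, a relative of Gadd45b known from the DNA damage response, moved the other way, from 5910, 4671 and 8080 to 2363, 3412 and 1862 (-1.30, SE 0.30, limma adjusted p = 0.0118). Ier3, a target and regulator of ERK signalling, fell from 5563, 4231 and 6076 to 1894, 3451 and 1913 (-1.17, SE 0.29, limma adjusted p = 0.017). The calls of Gadd45a and Ier3 were lost without wild-type GE replicate 1 (adjusted p = 0.0678 and 0.105) or 3 (0.0519 and 0.0666), that of Ier3 also without E-OEX GE replicate 3 (0.0602), and that of Atf3 without wild-type GE replicate 1 (0.0759) or 2 (0.0695). Nr4a1 (0.93) and Nr4a3 (0.41) did not pass, and both were called higher without E-OEX GE replicate 1 (limma adjusted p = 0.0105 and 0.0172).

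**Figure D3:**
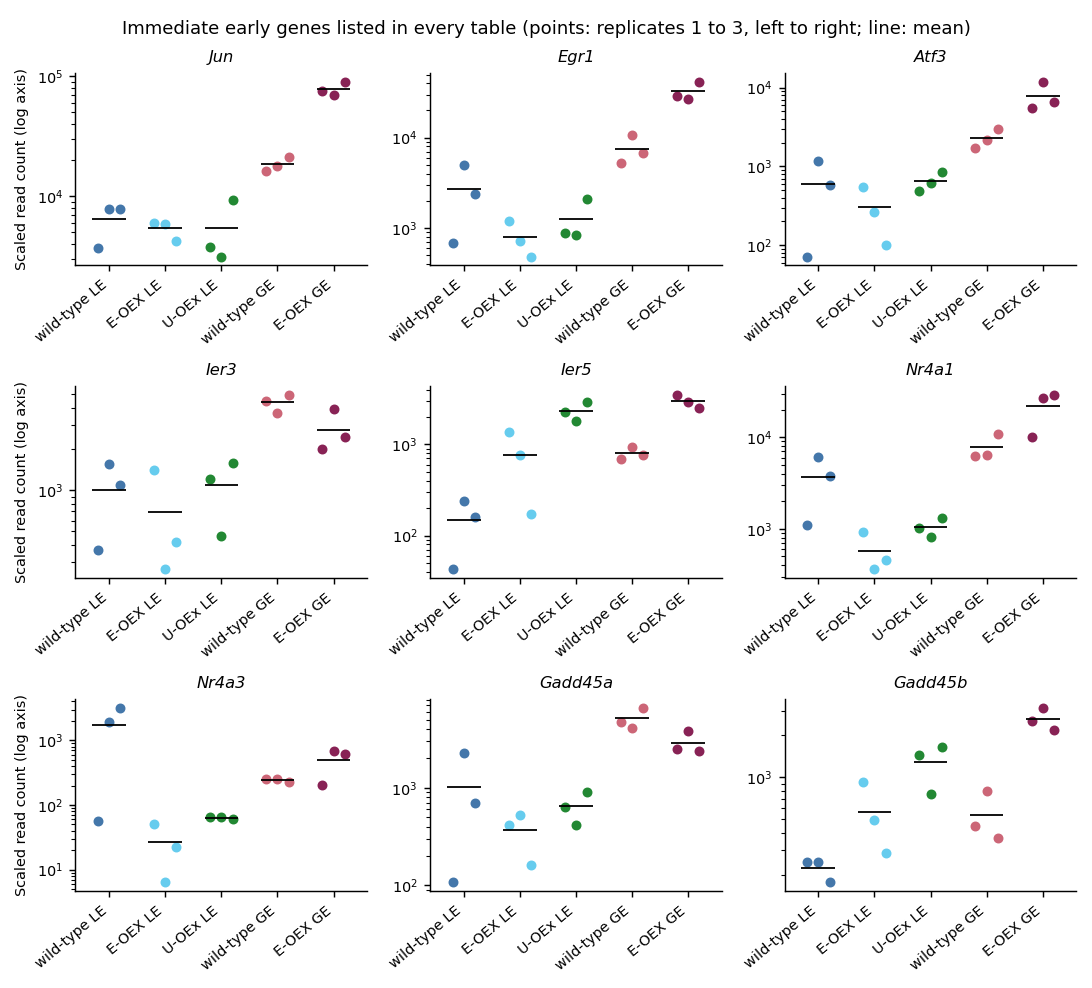
Scaled read counts (log axis) of the 9 immediate early genes listed in every table, in 5 groups of 3 libraries. Points are replicates 1 to 3 from left to right and lines are means. Jun lay between 3137 and 9371 in LE libraries, between 16337 and 21200 in wild-type GE and between 69593 and 89648 in E-OEX GE.

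On the deposited scale, the median over all genes in this comparison was 0.50 in place of 0.05, and 71.6% of all called genes were higher in place of 41.3%. On that scale 14 of the 18 genes passed, 13 higher and 1 lower, and Ier3 was no longer called (-0.71, limma adjusted p = 0.087). Smooth muscle markers moved with the comparison: 4 of 5 tested were called higher in E-OEX GE (median 1.66). Of the stromal markers 0 of 8 were called in limma (median 0.16) and 0 of 6 endothelial ones (median 0.17), with 0 of each at an unadjusted p under 0.05. Of the glandular markers 3 of 4 were called lower (median -2.67). Of the luminal markers 1 of 4 was called higher (median 0.02, highest 4.34), and of the general epithelial ones 1 of 3 (median -0.32, highest 2.04). The part of these cell types in the rises and falls was not tested.

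Other lists of related genes were read beside these genes, against the 9.72% of all genes called higher and 13.8% called lower in E-OEX GE. Of 5 tested members among 32 other chaperones and heat shock factor genes, 0 were called higher in limma and 2 lower in E-OEX GE, Hsf2 (-0.98) and Hspa13 (-0.86), with 4 of 5 at an unadjusted p under 0.05. Of 4 tested among 25 genes of endoplasmic reticulum stress, 0 were higher in limma and 2 lower, Xbp1 (-1.10) and Asns (-1.08), with 2 of 4 at an unadjusted p under 0.05. Of 8 tested among 42 other early response genes, 5 were higher and 0 lower in limma (7 of 8 at an unadjusted p under 0.05), with Plk2 (1.72), Myc (1.33) and Phlda1 (1.21) the widest. Of 2 tested among 12 feedback genes of the ERK pathway, 1 was lower, Ier3 itself. The regulators Hsf1 and Srf were analysed only in U-OEx LE, at 1281 ± 34.1 and 1137 ± 126 scaled reads (SD, n = 3).

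In luminal epithelium fewer of these genes were called between genotypes. A call in GE and none in LE does not by itself show that the change differed between the epithelia. Against wild-type LE, 0 of 18 genes were called higher in E-OEX LE and 2 were called lower, Nr4a1 and Nr4a3, where 10.7% of 2600 genes passed in limma, 5.12% higher and 5.54% lower. At an unadjusted p under 0.05 there were 4 of 18, beside 25.6% of all genes, and edgeR's quasi-likelihood test also called 0 higher and 2 lower. On the deposited scale 58.6% of all calls were higher in place of 48.0%, and Nr4a3 was no longer called (adjusted p = 0.0541). Nr4a1 went from 1242, 5786 and 4087 (TMM scale) in wild-type LE to 774, 364 and 425 in E-OEX LE (log2 fold change -2.64, SE 0.60, limma adjusted p = 0.0238). Nr4a3 went from 64.2, 1813 and 3467 to 42.6, 6.43 and 21.4 (-5.26, SE 1.31, limma adjusted p = 0.0332). The E-OEX libraries of both genes lay below every wild-type library, for Nr4a3 by little in replicate 1 of wild type. All 8 stromal markers tested were lower in E-OEX LE by sign (median -1.49), as were all 6 endothelial ones (median -1.92) and all 4 smooth muscle ones (median -2.11). None of these 18 passed in limma, with 2, 4 and 2 at an unadjusted p under 0.05, and 2 of 4 luminal markers were called lower (median -1.47). Their part in the falls was not tested. Both calls were lost with no filter on low values (adjusted p = 0.0899 and 0.145). Leaving out any 1 of the libraries other than wild-type LE replicate 1 also lost both (0.0572 to 0.139). Without wild-type LE replicate 1 there were 4 calls, all lower, with Egr1 (-2.32, limma adjusted p = 0.0233) and Dnajb1 (-1.68, limma adjusted p = 0.0441) added. The heat shock genes had a median log2 fold change of -0.08, beside -0.09 over all genes, and their intervals were wide, from -1.61 to 1.82 for Hspa1a. As in GE, the genes compared had been selected for a GE to LE difference in both genotypes. Shares and medians over all genes are not a like background here either.

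U-OEx LE was compared with the same wild-type LE libraries, so the 2 comparisons share their controls. Of 18 genes, 3 were called higher and 3 lower, where 56.9% of 5949 genes passed, 29.1% higher and 27.8% lower. Genes were in this comparison only if selected for a GE to LE difference in wild type, where 17 of the 18 were higher in GE by sign. These shares are thus not a like background for them. Ier5, an immediate early gene known to assist heat shock factor 1, had the widest change of the set. It went from 47.5, 232 and 158 in wild-type LE to 2326, 1773 and 2940 in U-OEx LE, an 18.9-fold rise (log2 fold change 4.24, SE 0.55, limma adjusted p = 0.00035). Gadd45b went from 279, 239 and 174 to 1481, 758 and 1658 (2.44, SE 0.36, limma adjusted p = 0.000669). Neither gene overlapped between the groups. Their log2 fold changes in E-OEX LE were 2.07 and 1.02 and did not pass (limma adjusted p = 0.142 and 0.236), and Ier5 was called higher there without E-OEX LE replicate 3 (3.09, limma adjusted p = 0.0253). Hspb8 fell from 1401, 1079 and 949 to 112, 115 and 175 (-3.09, SE 0.29, limma adjusted p = 7.59e-05), without overlap. In E-OEX LE it spread from 117 to 1323 on the deposited scale. Hspa5 rose by 0.71 (limma adjusted p = 0.0415), a call lost without wild-type LE replicate 1 or 3 or U-OEx LE replicate 1 or 3 (0.0851 to 0.127) and in edgeR's quasi-likelihood test (0.0543). Nr4a1 (-1.53, limma adjusted p = 0.0366) and Nr4a3 (-3.49, limma adjusted p = 0.0435) fell here too. Their groups overlapped, Nr4a3 at 65.4, 63.3 and 61.0 in U-OEx LE against 63.7, 1842 and 3144 in wild-type LE, and both calls were lost without any 1 library other than wild-type LE replicate 1 (0.0906 to 0.168) and on the deposited scale (0.0532 and 0.0548). Without wild-type LE replicate 1 Egr1 was also called lower (-1.53, limma adjusted p = 0.0291). Several marker lists moved with this comparison. Immune markers were called higher for 3 of 4 tested (median 1.86), glandular ones for 3 of 5 with 1 lower (median 3.80) and endothelial ones for 2 of 7 (median -0.36). Luminal markers were called lower for 3 of 5 (median -1.07), general epithelial ones for 3 of 4 (median -0.87), smooth muscle ones for 2 of 4 (median -0.99) and stromal ones for 1 of 8 (median -1.33). Their part in the changes was not tested.

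**Figure D4:**
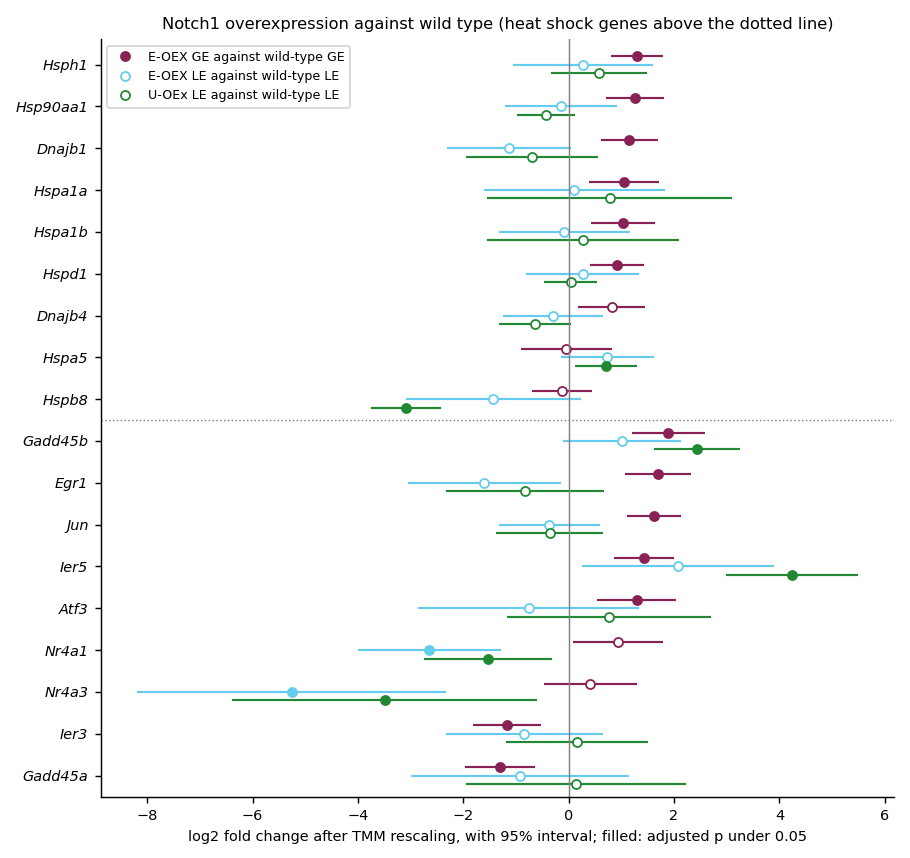
Log2 fold change of the 18 shared genes for E-OEX GE against wild-type GE and for E-OEX LE and U-OEx LE against wild-type LE, after TMM rescaling, with 95% intervals. Filled points have an adjusted p under 0.05. In GE 14 of 18 points lie right of 0, up to 1.89 for Gadd45b, and in LE the filled points farthest from 0 are Nr4a3 at -5.26 and Ier5 at 4.24.

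Of the related lists, 4 of 11 tested endoplasmic reticulum stress genes were called higher in U-OEx LE and 1 lower, with Herpud1 (2.37), Ern1 (2.15) and Sdf2l1 (2.02) the widest, beside 29.1% and 27.8% of all genes. Of 9 other early response genes 5 were higher and 3 lower, with Phlda1 (3.90), Egr4 (-3.19) and Myc (2.19) named by size. Of 4 other chaperones 1 was lower, Serpinh1 (limma adjusted p = 0.0404), and of 4 ERK feedback genes 1 was higher. In E-OEX LE 0 of 5 other chaperones and 0 of 4 endoplasmic reticulum stress genes were called in limma, with 0 of each at an unadjusted p under 0.05. Of the other early response genes, 2 of 8 were lower there, Btg1 (-1.78) and Plk2 (-1.77), and 0 were higher in limma, with 5 of 8 at an unadjusted p under 0.05.

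Between the overexpressing groups, 36 genes could be compared in LE. Fos alone of the 36 passed in limma, from 1956, 1130 and 1336 in E-OEX LE to 4069, 3228 and 7068 in U-OEx LE (log2 fold change 1.66, SE 0.38, limma adjusted p = 0.0255), where 15.0% of 4275 genes passed, 6.97% higher and 8.05% lower. The groups did not overlap. The call was lost with no filter on low values (0.0585), without E-OEX LE replicate 2 (0.0735) or 3 (0.0576) and without U-OEx LE replicate 1 (0.104) or 3 (0.111). Without E-OEX LE replicate 1 there were 6 calls. Marker lists moved here as well. Endothelial markers were called higher in U-OEx LE for 2 of 6 (median 1.36) and smooth muscle ones for 1 of 6 (median -0.13). Luminal ones were called lower for 2 of 4 (median -1.70). Of the stromal markers 0 of 10 were called in limma, with 1 of 10 at an unadjusted p under 0.05. Their part in the change of Fos was not tested. The immediate early genes had a median of 0.86 and the heat shock genes one of -0.41, beside 0.06 over all genes. All 36 were in this comparison through the E-OEX selection for a GE to LE difference, and all 36 were higher in GE there. For these genes the selection was thus tied to low E-OEX LE values. Shares and medians over all genes are not a like background for them.

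A test of the difference between the epithelia asked whether the E-OEX to wild-type change was the same in GE and LE, as an interaction over 2933 shared genes. Of 18 genes, 6 passed, all with a more positive change in GE, where 10.7% of all genes passed, 5.83% in that direction and 4.91% in the other. The genes tested had been selected in both genotypes for a GE to LE difference, the quantity compared here. All 36 of the set listed in E-OEX were higher in GE there, so the positive direction is not independent of that selection. The interaction uses the same libraries as the comparisons within each epithelium. The 6 genes were Nr4a3 (5.97, SE 1.67), Nr4a1 (3.87, SE 0.84), Egr1 (3.58, SE 0.82), Dnajb1 (2.57, SE 0.61), Jun (2.28, SE 0.43) and Hsp90aa1 (1.69, SE 0.46), on the log2 scale. Their limma adjusted p-values were 0.0371, 0.0113, 0.0149, 0.0166, 0.00547 and 0.0341. The calls of Nr4a3 and Hsp90aa1 were lost with a pseudocount of 0.1 (adjusted p = 0.0531 and 0.0528) and with TMM (0.0593 and 0.165), and that of Hsp90aa1 also in edgeR's quasi-likelihood test (0.215). Leaving out wild-type LE replicate 2 or 3, any 1 wild-type GE library, or E-OEX GE replicate 2 or 3 also lost both (0.057 to 0.0995), as did E-OEX LE replicate 2 for Nr4a3 (0.09) and E-OEX LE replicate 1 and E-OEX GE replicate 1 for Hsp90aa1 (0.0536 and 0.0632). The call of Dnajb1 was lost with TMM (0.063), without wild-type LE replicate 3 (0.0529) and without E-OEX GE replicate 3 (0.0502). In every setting run, Jun, Egr1 and Nr4a1 passed, and Dnajb4 was added without E-OEX GE replicate 1 (1.69, limma adjusted p = 0.0253). Without wild-type LE replicate 1 there were 10, with Hspa1a (2.29), Hspa1b (2.07), Hsph1 (1.85) and Atf3 (3.51) added, and without wild-type LE replicate 3 or E-OEX GE replicate 3 there were 3. With TMM in place of the deposited scale 3 passed, the median over all genes was 0.07 in place of 0.33, and 43.9% of all calls were positive in place of 54.3%. Of 8 other early response genes, Plk2 (3.78) and Btg1 (2.89) passed on the deposited scale. Of the markers, 3 of 5 for smooth muscle and 1 of 6 for endothelium were called positive. So were 2 of 4 luminal and 1 of 3 general epithelial ones, while 3 of 4 for glands were called negative.

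Single libraries moved many of these genes together. Wild-type LE replicate 1 had the lowest value of its group for 7 of 9 heat shock genes (77.8%) and 8 of 9 immediate early genes (88.9%), beside 40.2% of all listed genes. Gadd45a was 108 there and 2246 and 701 in the other two, and Atf3 was 71.5 against 1162 and 573. The stromal marker sum of these libraries had the same order, 369, 7743 and 2470, as did 7 of 9 immediate early genes and 5 of 9 heat shock genes, beside 30.1% of all listed genes. In U-OEx LE, replicate 3 had the highest value for 18 of 22 immediate early genes (81.8%) and 9 of 15 heat shock genes (60.0%), beside 36.1% of all genes. Hspa1b was 32597 there and 5383 and 4483 in the other libraries. The stromal sums were 1019, 686 and 2679, and 17 of 22 immediate early genes had their order (77.3%, beside 20.1% of all genes). The immune marker sums, 8295, 4360 and 8592, had that order too, so the match is not particular to stroma, and in wild-type LE the endothelial sums had the same order as the stromal ones. Other marker lists did not match. In U-OEx LE, 0 of 15 heat shock and 1 of 22 immediate early genes had the order of the smooth muscle and endothelial sums, beside 16.8%. In wild-type LE, 0 of 9 and 0 of 9 had the order of the immune sums, beside 22.7%, or of the smooth muscle sums, beside 12.1%. In wild-type GE 2 of 9 heat shock and 2 of 9 immediate early genes had the stromal order, beside 21.7% of all listed genes. In E-OEX LE 3 of 14 and 7 of 22 had it, beside 25.6%. In E-OEX GE 9 of 14 and 10 of 22 had it, beside 20.5%. There Cd68, the only immune marker listed, had the stromal order too. The order of the smooth muscle sums was met by 0 of 14 and 1 of 22 (beside 13.9%). That of the endothelial sums was met by 1 of 14 and 4 of 22 (beside 26.0%). E-OEX LE replicate 1 was highest for 17 of 22 immediate early genes (77.3%, beside 42.3%). It was also highest of its group in the glandular marker sums (1008, 200 and 108 in replicates 1 to 3) and in the stromal ones (2734, 1214 and 507). E-OEX GE replicate 2 was highest for 13 of 14 heat shock genes (92.9%, beside 29.1%). The part of glandular, stromal, smooth muscle, endothelial or immune RNA in these library differences was not tested.

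**Figure D5:**
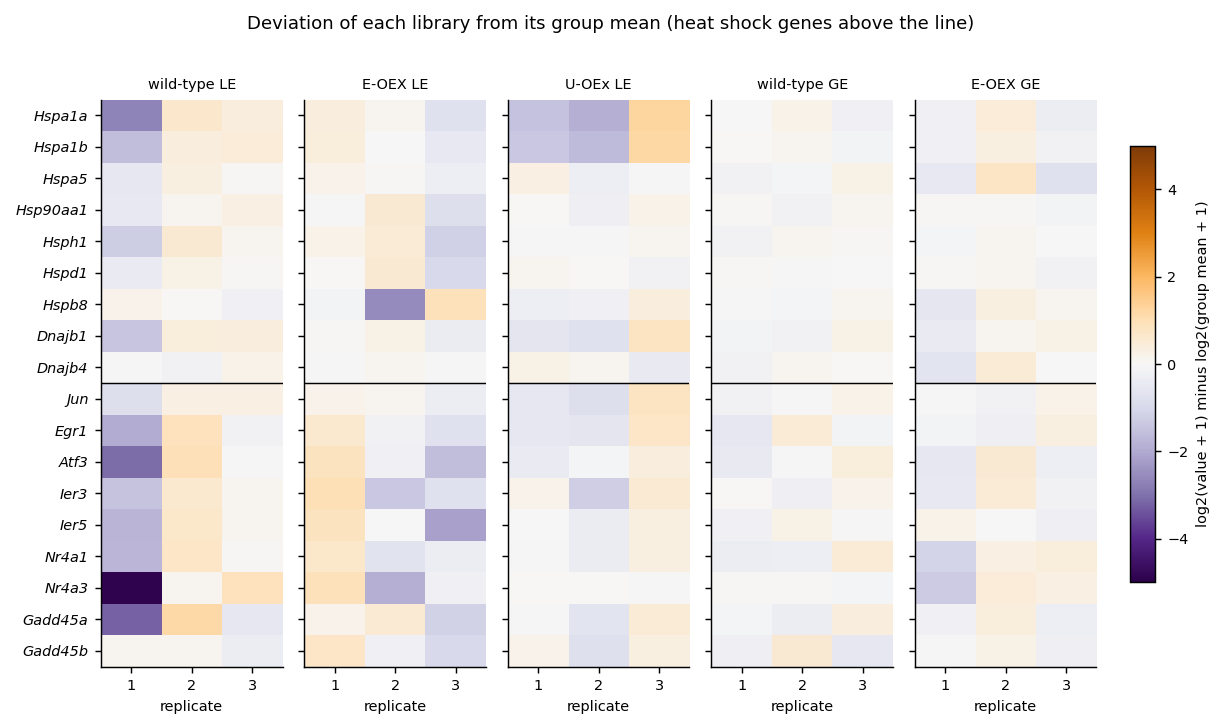
Deviation of each library from its group mean, as log2(value + 1) minus log2(mean + 1), for the 18 genes listed in every table. Columns are replicates 1 to 3 of each group, orange is above the mean and purple below. Wild-type LE replicate 1 is lowest for 15 of the 18 genes, and Hspa1a and Hspa1b stand out in U-OEx LE replicate 3.

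Only the U-OEx tables list genes without selection, so levels were compared between genes there, as scaled reads per kilobase of exon. Hsp90ab1, the constitutive HSP90, was the highest at 10575 ± 1585 (SD, n = 3), rank 23 of 22656 genes. Hspa8, the constitutive HSP70, followed at 5457 ± 435. Hspa1b came next at 5050 ± 5700, but its 3 libraries were at 1920.5, 1599.5 and 11629, so its place rests on replicate 3. Of the immediate early genes Junb (2739 ± 1230) and Fos (2035 ± 953) were the highest per kilobase. The difference of their means was smaller than the spread of either gene between libraries. Within each library Junb was above Fos (2675 against 1652, 1543 against 1332 and 4000 against 3119). At the other end Egr3 (11.6 ± 9.69), Nr4a3 (10.5 ± 0.353) and Fosl1 (9.94 ± 4.30) could not be ranked against each other within their spread. Hspb8 was at 68.5 ± 18.0 and Dnajb4 at 22.6 ± 5.28, the lowest of the heat shock genes per kilobase.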

How the data were processed

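The authors' deposited values are a signal, read counts divided by 1 factor per library. This was read from the values: 100% of them were within 0.01 of a whole number of reads after division by the library's step. The build is GRCm38 (mm10), per the submitters' processing notes, and aligner, counter, annotation and scaling are not given in the sources used here. All 37 listed genes had the same symbol in GENCODE M21, which also gave coordinates and exon lengths.

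Comparisons between GE and LE and the interaction used deposited values. Comparisons between genotypes used recovered reads of shared genes rescaled by TMM (edgeR 4.0.16), since the tables may have been scaled separately. limma 3.58.1 (R 4.3.3, with trend) was fitted to log2(value + 1), leaving out genes whose mean value was under 1, with Benjamini-Hochberg adjustment over all genes tested and a threshold of 0.05. Fold changes of low genes are understated. Members and lists were chosen with earlier results of these data known. Every member could be named, and of each related list at most the 3 called genes with the largest change per comparison, plus Hsf1 and Srf. Alternatives were no filter, a pseudocount of 0.1, a replicate block, edgeR's quasi-likelihood test, another scaling and each library left out. Python 3.11.15 made the figures and searched motifs.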

Additional observations from a re-analysis of the deposited data

Results flagged for a closer look

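The change between E-OEX and wild type differed between GE and LE, by the interaction test, for 6 genes. The log2 differences were 5.97 for Nr4a3, 3.87 for Nr4a1, 3.58 for Egr1, 2.57 for Dnajb1, 2.28 for Jun and 1.69 for Hsp90aa1, each with the more positive change in GE. The tests behind them, and the libraries and settings on which the calls of Nr4a3, Hsp90aa1 and Dnajb1 rest, are given with the interaction test in the results. The genes tested had been selected for a GE to LE difference, and all 36 of the set listed in E-OEX were higher in GE there. The shared direction is thus not independent of that selection. In GE the log2 fold changes of Nr4a3 and Nr4a1 were 0.41 and 0.93 and did not pass, while in LE they were -5.26 and -2.64. Egr1 was at 1.69 in GE and -1.60 in LE, Dnajb1 at 1.15 and -1.13, Jun at 1.61 and -0.37, and Hsp90aa1 at 1.26 and -0.14, and these LE values did not pass.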

How the results depend on the processing

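Of 1890 fits of single genes under alternatives, 67 changed sign, and 0 of these passed the test in the original fit or in the alternative. The cause was not tested unless named. With no filter on low values, more genes were tested, and 0 heat shock or immediate early genes were called in E-OEX LE against wild-type LE (105 of all genes, in place of 277) and 0 in U-OEx LE against E-OEX LE (286, in place of 642). With the other scaling, 1 was called in E-OEX LE against wild-type LE and 3 in the interaction. Same-numbered libraries were taken as paired only if the correlation of their deviations was over 0.1 in every pair. No comparison met this, E-OEX GE against wild-type GE coming nearest with 0.0149, 0.0654 and 0.188. Each wild-type GE library correlated best with the E-OEX GE library of its own number over the genes of the interaction, and replicate 2 did not over the genes of the comparison itself. With the replicate block 2 genes were called in U-OEx LE against E-OEX LE, in place of 1 (Egr3 added, adjusted p = 0.0441), 17 of 18 in wild-type GE against LE, in place of 16 (Nr4a1 added, 0.0164), 5 in U-OEx LE against wild-type LE, in place of 6 (Hspa5 lost, 0.0759), and 11 of 18 in E-OEX GE against wild-type GE, in place of 13 (Hspa1a and Hspa1b lost, 0.0804 and 0.109). In the other 3 comparisons the block moved no count.

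Leaving out 1 library at a time, which leaves fewer samples, gave 0 to 4 genes for E-OEX LE against wild-type LE (56 to 322 of all genes), 8 to 14 for E-OEX GE against wild-type GE (362 to 728), 3 to 10 for the interaction (179 to 449), 3 to 6 for U-OEx LE against wild-type LE and 0 to 6 for U-OEx LE against E-OEX LE (60 to 904). For U-OEx LE against wild-type LE the range over all genes was 2757 to 3439, for GE against LE 12 to 17 of 18 genes in wild type (5548 to 6108) and 34 to 36 of 36 in E-OEX (3387 to 4200). Over all genes, the libraries whose loss lowered a count by over 1.5 times were, for E-OEX LE against wild-type LE, wild-type LE 2 (117) and 3 (56) and E-OEX LE 1 (76) and 2 (62). For E-OEX GE against wild-type GE they were wild-type GE 1 (362) and 3 (430). For the interaction they were wild-type LE 3 (192), wild-type GE 1 (192), 2 (209) and 3 (179) and E-OEX GE 2 (202) and 3 (202). For U-OEx LE against E-OEX LE they were E-OEX LE 2 (340) and 3 (334) and U-OEx LE 1 (60), 2 (353) and 3 (97).

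Sign changes with 1 library left out are given as ranges of the log2 fold change. For E-OEX LE against wild-type LE they were -0.70 to 0.30 for Hspa1b, -0.22 to 0.94 for Hsph1, -0.14 to 0.85 for Hspd1, -0.53 to 0.36 for Hsp90aa1, -0.90 to 0.63 for Hspa1a, -2.05 to 0.0089 for Gadd45a and -1.88 to 0.029 for Atf3. In E-OEX GE against wild-type GE they were -0.51 to 0.31 for Hspa5 and -0.33 to 0.074 for Hspb8. In the interaction they were -1.21 to 0.38 for Ier5, -0.55 to 0.65 for Ier3 and -1.08 to 1.10 for Gadd45a. In U-OEx LE against wild-type LE they were -0.57 to 0.86 for Hspa1b, -0.088 to 0.20 for Hspd1, -0.21 to 1.44 for Hspa1a, -0.77 to 0.016 for Jun, -0.39 to 0.75 for Ier3, -0.98 to 1.11 for Gadd45a and -0.33 to 1.57 for Atf3. In U-OEx LE against E-OEX LE they were -0.81 to 0.59 for Hspa1b, -0.57 to 0.98 for Hspa1a, -0.73 to 0.033 for Jun, -0.31 to 0.41 for Dnajb1, -0.48 to 0.39 for Hsph1, -0.13 to 0.41 for Jund, -0.22 to 0.67 for Gadd45g and -0.20 to 0.12 for Hspa8.

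With the other scaling the sign changed for Hspa1b (0.092) and Hsp90aa1 (0.029) in E-OEX LE against wild-type LE, Hspa5 (0.42) and Hspb8 (0.34) in E-OEX GE against wild-type GE, and Hspa8 (0.099) in U-OEx LE against E-OEX LE. With edgeR's quasi-likelihood test it changed for Hspa1a (-0.34) in E-OEX LE against wild-type LE, Hspa5 (0.11) in E-OEX GE against wild-type GE, Gadd45a in the interaction (0.43) and in U-OEx LE against wild-type LE (-0.60), and Hsph1 (-0.15) in U-OEx LE against E-OEX LE. The full depth of the wild-type and E-OEX libraries is not known, since their tables hold selected genes.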
